A study of Mus musculus with 32 samples.

Results

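Osteopontin, encoded by Spp1, and 9 genes that mark disease-associated microglia were followed through cultured mouse cortical neurons exposed to extracellular miRNA. The other genes are Apoe, Lpl, Cst7, Itgax, Clec7a, Gpnmb, Axl, Cd9, and Lgals3. They are 10 of the 49671 genes in the count table and were matched by Ensembl identifier through the GENCODE M21 annotation of GRCm38. Spp1 was selected on its levels at 5 d, since the study names it as raised then by miR-92a-1-5p and by Mut.oligo. The study does not name it as raised by miR-124-5p. The levels of Spp1 at 5 d are therefore described here without a test in every comparison of conditions or times. The other 9 genes were added as companions of Spp1 in the disease-associated state. Spp1 lies at chr5:104435118-104441050 on the plus strand and overlaps Gm42793 on the same strand. Apoe lies at chr7:19696109-19699188, Axl at chr7:25757273-25788705, and Cd9 at chr6:125460266-125494791, all on the minus strand, and Gpnmb at chr6:49036546-49070929 on the plus strand (GRCm38).

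The cultures were prepared from forebrain cortices of wild-type C57BL/6 mouse embryos and are labelled as cortical neurons. They were left untreated or exposed at 10 µg/mL to Mut.oligo, to miR-124-5p, or to miR-92a-1-5p, and RNA was sequenced after 6 h and after 5 d. Mut.oligo is a mutated let-7b sequence used as an oligoribonucleotide control. Each of the 8 groups held 4 libraries, and the labels call them biological replicates without naming the animals. The labels give an experiment batch as well, with 7 batches at 6 h and 6 others at 5 d, so that time and batch cannot be told apart. The batches are lettered A to G at 6 h and H to M at 5 d.

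Disease-associated microglia are a state that brain-resident macrophages enter near amyloid plaques and dying neurons. Cells in this state lower homeostatic genes such as P2ry12 and Tmem119 and raise genes for lipid handling, lysosomes, and phagocytosis. Several of the genes followed here are not restricted to microglia: Apoe is also made by astrocytes in large amounts, Lpl and Cd9 occur in other neural cells, and osteopontin is secreted by many cell types.

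The mature miR-92a-1-5p sequence is shown because its seed was sought in these genes. It is given in the RefSeq table of GRCm38.p6 at chr14:115044437-115044459 on the plus strand, with the seed, bases 2 to 8, in capitals.
miR-92a-1-5p: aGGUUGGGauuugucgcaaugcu
The 7 letters complementary to this seed, CCCAACC, were searched on the transcript strand in the annotated 3′ UTRs of GENCODE M21. Of the 10 genes, Cd9 held a match, which starts at base 7 of its 3′ UTR of 395 bases. Its stretch of 30 bases lies at chr6:125460631-125460660 (GRCm38, minus strand), with the match in capitals.
Cd9: agtctgCCCAACCccgagcaggaacaacgg
The same 7 letters occurred in the 3′ UTRs of 1998 of 15912 tested genes, or 12.6%. A match of letters is a description and not a measured target site.

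The libraries held 24514090 to 73626029 counted reads, and 3 reads correspond to between 0.0407 and 0.122 counts per 1e6 counted reads (CPM). This floor covers counting error only. Levels below are CPM after TMM normalization over all 32 libraries, and levels of different genes are compared per kilobase of exon. Neuronal markers dominated, with Tubb3 at 2032 to 2461 CPM at 6 h. The summed level of 10 astrocyte markers was 415 to 871 CPM at 6 h and 1799 to 3218 CPM at 5 d. The 11 general microglia and macrophage markers summed to 16.2 to 39.9 CPM at 6 h and to 23.8 to 51.6 CPM at 5 d. Microglial genes differed in level, and some homeostatic ones were near the floor. P2ry12 had at most 0.283 CPM at 6 h and 0.386 CPM at 5 d. Siglech had 0 counts in 13 of 16 libraries at 6 h and in 11 of 16 at 5 d. Other microglial genes lay above the floor. The homeostatic genes Fcrls and Cx3cr1 had medians of 3.05 and 0.805 CPM at 6 h and of 3.59 and 1.47 CPM at 5 d. Among the general markers, C1qa and Csf1r had medians of 3.09 and 1.67 CPM at 6 h and of 4.84 and 2.44 CPM at 5 d. In bulk RNA, fewer cells of a type and less RNA per cell cannot be told apart.

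The genes differed widely in level. Apoe, which carries cholesterol between brain cells, was the most abundant per kilobase, with a median of 67.7 CPM per kb at 6 h and 334 at 5 d. Cd9, a tetraspanin of the cell membrane, followed with medians of 8.83 and 11.5 CPM per kb. Lpl, the lipase that releases fatty acids from lipoproteins, had medians of 4.17 and 6.10, and Axl, a receptor tyrosine kinase for the clearance of dying cells, had 2.62 and 5.85. Spp1 had a median of 1.05 CPM per kb at 6 h and of 6.42 at 5 d, and thus passed Lpl and Axl in this order at 5 d. Lgals3, encoding galectin-3, and Gpnmb, a glycoprotein linked to lysosomes, stayed near or below 1 CPM per kb, with medians of 0.859 and 1.04 and of 0.254 and 0.410, respectively.

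Clec7a, Itgax, and Cst7 had the lowest levels of the list. Clec7a, the beta-glucan receptor dectin-1, had 7 to 61 counts per library and was above the floor of 3 reads in each. Itgax, which encodes the integrin subunit CD11c, had 0 to 9 counts. Cst7, encoding the protease inhibitor cystatin F, had 0 to 3 counts and was at 0 in 9 of 16 libraries at 6 h and in 14 of 16 at 5 d. Cst7 therefore fell under the minimum of 5 counts in at least 3 libraries, and 9 of the 10 genes were tested. Differences in Cst7 were not detectable at this depth.

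**Figure D1:**
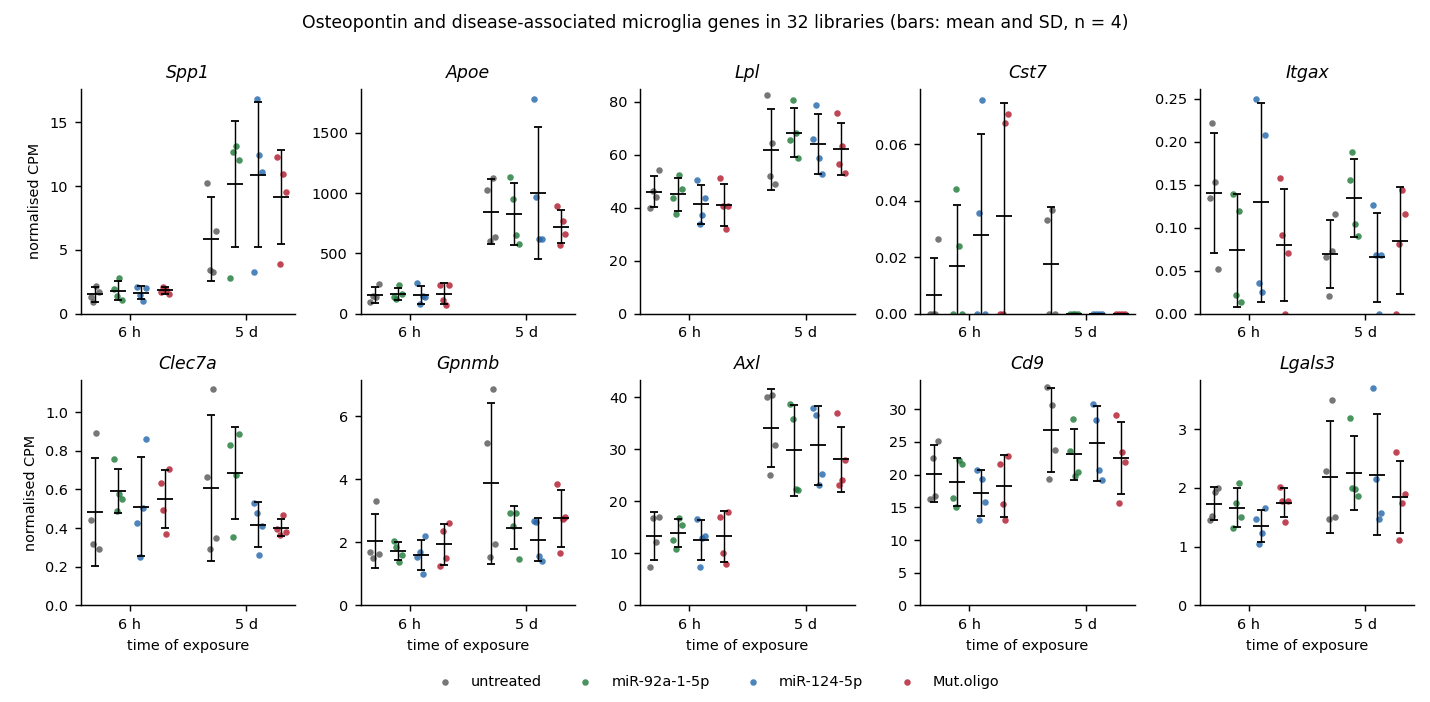
Each panel shows one gene, with normalised CPM on a linear axis from 0 against exposure time, points for single libraries, and bars for mean and SD (n = 4). Spp1 lies between 0.890 and 2.77 CPM at 6 h and between 2.83 and 16.8 CPM at 5 d, and untreated and exposed libraries overlap in every panel.

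At 6 h, the question was whether the oligoribonucleotides change these genes early. Spp1 had 1.28, 0.890, 2.21, and 1.74 CPM in untreated libraries 1 to 4. It had 1.96, 1.42, 2.77, and 1.04 CPM in miR-92a-1-5p libraries. In miR-124-5p libraries, it had 2.07, 1.47, 0.982, and 2.03 CPM. Mut.oligo libraries had 1.74, 2.12, 1.89, and 1.56 CPM, so that all 4 groups overlapped. The log2 fold change of Spp1 was 0.21 for miR-92a-1-5p, with a standard error (SE) of 0.312. It was 0.09 for miR-124-5p and 0.27 for Mut.oligo, both with an SE of 0.319. The smallest adjusted p of these was 0.83 (edgeR, quasi-likelihood F-test, adjusted by Benjamini-Hochberg over all genes). Its within-batch differences from untreated ranged from -0.17 to 0.66 on the log2 scale over the 4 batches shared with miR-92a-1-5p.

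None of the 9 tested genes passed the threshold at 6 h after any of the 3 oligoribonucleotides. A gene passed when its adjusted p was under 0.05 and its log2 fold change was over 0.5 in size, and 0% of 18755 genes passed in each of these comparisons. With the experiment batch as a covariate, 0.208% of all genes passed for miR-92a-1-5p, 0.0213% for Mut.oligo, and 0% for miR-124-5p, and again none of the 9. In that fit, Mut.oligo 4 and miR-124-5p 3 contribute nothing at 6 h, since each is the only library of its batch. No gene of the list had exposed libraries that all lay outside the range of the untreated ones, against 3.59% of all genes for miR-92a-1-5p, 4.23% for Mut.oligo, and 3.25% for miR-124-5p. The fold changes at 6 h lay between -0.15 and -0.03 for Lpl, between -0.01 and 0.12 for Apoe, between -0.08 and 0.07 for Axl, and between 0.12 and 0.28 for Clec7a. Itgax, at single counts, ranged from -1.06 to -0.10 with SE up to 0.846.

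Cd9 was the most regular gene at 6 h, with fold changes of small size. Untreated libraries had 16.2, 22.5, 16.7, and 25.2 CPM, and miR-124-5p libraries 20.8, 13.01, 19.4, and 15.8 CPM, which overlapped. Within batches, Cd9 was lower than untreated in 4 of 4 libraries after miR-92a-1-5p and in 2 of 2 after each of the other oligoribonucleotides. These comparisons share their untreated libraries. With the batch as a covariate, the log2 fold change for miR-124-5p was -0.23 with an SE of 0.0685, and the adjusted p was 0.798 (edgeR). Cd9 holds the seed match shown above for miR-92a-1-5p, after which its range of within-batch log2 differences was -0.18 to -0.02. The range was -0.32 to -0.22 after Mut.oligo and -0.28 to -0.08 after miR-124-5p, for which no seed was searched.

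At 5 d, Spp1 was higher in all groups than at 6 h, and its level followed the experiment batch. Untreated libraries 1 to 4 had 10.2, 3.41, 3.27, and 6.49 CPM. The miR-92a-1-5p libraries had 2.83, 12.7, 13.2, and 12 CPM. The miR-124-5p libraries had 3.28, 16.8, 12.4, and 11.1 CPM. Mut.oligo libraries had 12.3, 3.93, 10.9, and 9.52 CPM. In each exposed group, 3 libraries were at 9.52 CPM or above and 1 was at 3.93 CPM or below, so that no exposed group was separate from untreated. The means were 5.85 ± 3.29 CPM in untreated, 9.16 ± 3.66 after Mut.oligo, 10.2 ± 4.91 after miR-92a-1-5p, and 10.9 ± 5.64 in miR-124-5p libraries (SD, n = 4). Neighbours in this order differed by less than the larger of their SDs.

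The low and the high libraries came from different batches. Batches H, J, and L held the 5 lowest libraries, at 2.83 to 3.93 CPM, and batches I, K, and M the other 11, at 6.49 to 16.8 CPM. The low libraries were 2 untreated ones and 1 of each oligoribonucleotide. Batch accounted for 93.2% of the variance of log2 CPM of Spp1 at 5 d, against a median of 53.5% over 19333 tested genes, and 2.82% of genes had a larger share. Condition accounted for 14.8%, against a median of 13.01%. These shares overlap, since conditions are spread unevenly over batches.

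Within shared batches, Spp1 was higher in exposed than in untreated libraries. In batch I, it had 10.2 CPM in untreated, 12.3 after Mut.oligo, 12.7 after miR-92a-1-5p, and 16.8 in the miR-124-5p library. In batch M, the values were 6.49, 9.52, 12, and 11.1 CPM in the same order. In batch J, untreated had 3.41 and Mut.oligo 3.93 CPM. The log2 differences ranged from 0.31 to 0.88 for miR-92a-1-5p, from 0.71 to 0.77 for miR-124-5p, and from 0.20 to 0.55 for Mut.oligo. They rest on 3 untreated libraries that the comparisons share, and untreated 3 stands alone in its batch. The fitted log2 fold changes were 0.80 (SE 0.499) for miR-92a-1-5p, 0.64 (SE 0.497) for Mut.oligo, and 0.90 (SE 0.498) for miR-124-5p without a covariate. With the batch as a covariate, they were 0.58 (SE 0.114), 0.36 (SE 0.106), and 0.68 (SE 0.114) in the same order. Leaving out untreated 1, the highest untreated library, raised them to 1.21, 1.06, and 1.31 in the fit without a covariate. Fits without untreated 2 or 3, the lowest of the group at 3.41 and 3.27 CPM, are not given here. Only the upward side of this dependence is therefore shown.

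**Figure D2:**
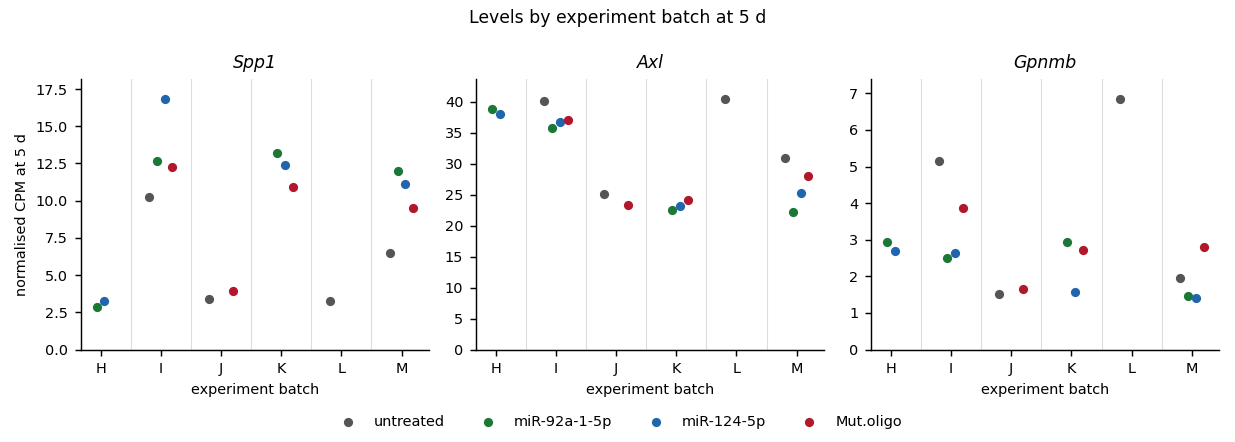
Normalised CPM at 5 d (linear axis from 0) of Spp1, Axl, and Gpnmb against experiment batch, 1 point per library, coloured by condition. Spp1 is at 2.83 to 3.93 CPM in batches H, J, and L and at 6.49 to 16.8 CPM in I, K, and M, and within I, J, and M the untreated library is the lowest.

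Among the oligoribonucleotides, the log2 difference in Spp1 at 5 d was 0.15 between miR-92a-1-5p and Mut.oligo, with an SE of 0.492. It was 0.25 with an SE of 0.490 between miR-124-5p and Mut.oligo, and miR-92a-1-5p differed from miR-124-5p by -0.10 with an SE of 0.491. With the batch as a covariate, the difference between miR-124-5p and Mut.oligo was 0.32 with an SE of 0.0988. These values are given without a test, since Spp1 was selected on the same libraries. In the 6 comparisons among the oligoribonucleotides, none of the 9 genes at 6 h and none of the 8 others at 5 d passed without a covariate (edgeR), and 0% of all genes passed in each.

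The osteopontin receptors did not pass the threshold at 5 d in any comparison with untreated. The 8 genes listed were Cd44 and the integrin subunits Itgav, Itgb1, Itgb3, Itgb5, Itga4, Itga5, and Itga9. Their median log2 fold change was -0.02 after miR-92a-1-5p, -0.06 after Mut.oligo, and -0.0009 after miR-124-5p, beside -0.0013, 0.0031, and 0.0027 over all genes. Among the 23 other genes of the disease-associated state, which include Trem2, Tyrobp, and the cathepsins Ctsb, Ctsd, and Ctsl, 0 passed after any oligoribonucleotide with edgeR, with or without the batch.

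None of the 8 other tested genes passed at 5 d. Without a covariate, 0.00517% of all genes passed after miR-92a-1-5p and 0% in the other 2 comparisons. With the batch, 0.352% passed for miR-92a-1-5p, 0.0466% for Mut.oligo, and 0.0259% for miR-124-5p. Untreated 3 contributes nothing to this fit, being alone in its batch. No gene of the list separated exposed from untreated libraries, against 2.88% of all genes for miR-92a-1-5p, 2.03% for Mut.oligo, and 1.63% for miR-124-5p. Over the 12 comparisons of conditions at both times, edgeR called 0 of 102 tests of these genes and found 1 with an unadjusted p under 0.05, and 12 with the batch as a covariate. DESeq2 called 0 as well, with 0 and 11 unadjusted p under 0.05.

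Most of the small unadjusted p at 5 d belonged to Gpnmb, Axl, and Cd9. Gpnmb had 5.15, 1.53, 6.84, and 1.95 CPM in untreated libraries and 2.94, 2.51, 2.94, and 1.48 CPM in miR-92a-1-5p libraries. After miR-124-5p, it had 2.68, 2.65, 1.58, and 1.41 CPM, and after Mut.oligo 3.86, 1.66, 2.73, and 2.79 CPM. The 2 highest libraries were both untreated, yet the groups overlapped, since the other 2 untreated libraries were among the low ones. The log2 fold change was -0.65 (SE 0.397) for miR-92a-1-5p, -0.88 (SE 0.400) for miR-124-5p, and -0.48 (SE 0.392) for Mut.oligo. The smallest adjusted p was 0.999 (edgeR). With the batch, the values were -0.55 (SE 0.213), -0.80 (SE 0.213), and -0.045 (SE 0.191) in the same order, with a smallest adjusted p of 0.390. Between miR-124-5p and Mut.oligo, the difference was -0.75 with an SE of 0.194 and an adjusted p of 0.998 with the batch. Without untreated 3, the fold change of Gpnmb for miR-92a-1-5p moved from -0.65 to -0.23.

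Axl had 40.2, 25.1, 40.4, and 30.8 CPM in untreated libraries at 5 d. The miR-92a-1-5p libraries had 38.7, 35.8, 22.5, and 22.2 CPM. The values were 38.02, 36.7, 23.1, and 25.3 CPM after miR-124-5p, and 37.01, 23.3, 24.2, and 28.03 CPM after Mut.oligo. The libraries fell into a high and a low set that each held all 4 conditions. Within shared batches, Axl was lower than untreated in 2 of 2 libraries after either miRNA and in 3 of 3 after Mut.oligo. With the batch, the log2 fold change was -0.28 (SE 0.0669) for miR-92a-1-5p, -0.22 (SE 0.0665) for miR-124-5p, and -0.13 (SE 0.0608) for Mut.oligo. The adjusted p for miR-92a-1-5p was 0.0990 with edgeR and 0.0317 with DESeq2, both with the batch, and the fold change stayed under the minimum of 0.5.

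Cd9 had 33.4, 19.4, 30.6, and 23.8 CPM in untreated libraries at 5 d and 23.6, 28.5, 19.8, and 20.4 CPM after miR-92a-1-5p. It was again lower than untreated within every shared batch, with log2 differences of -0.23 to -0.22 after miR-92a-1-5p, -0.30 to -0.12 after Mut.oligo, and -0.31 to -0.23 after miR-124-5p. With the batch, the log2 fold changes were -0.34 (SE 0.0874) for miR-92a-1-5p, -0.18 (SE 0.0803) for Mut.oligo, and -0.24 (SE 0.0883) for miR-124-5p. The adjusted p for miR-92a-1-5p was 0.135 with edgeR and 0.0407 with DESeq2, both with the batch, and the fold change was under the minimum. Without a covariate, they were -0.22, -0.25, and -0.11 in the same order, with SE of 0.197 to 0.198.

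The other genes showed no common direction at 5 d. Clec7a had log2 fold changes of 0.17 after miR-92a-1-5p, -0.59 after Mut.oligo, and -0.52 after miR-124-5p, with SE of 0.369 to 0.381. Apoe ranged from -0.23 to 0.25, Lpl from 0.01 to 0.14, Lgals3 from -0.24 to 0.04, and Itgax from -0.08 to 0.90. Apoe, Lpl, and Lgals3 were each dominated by batch at 5 d, with 90.3%, 91.2%, and 89.7% of their variance between batches. Itgax and Clec7a had 20.2% and 48.5%, under the median of all genes.

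**Figure D3:**
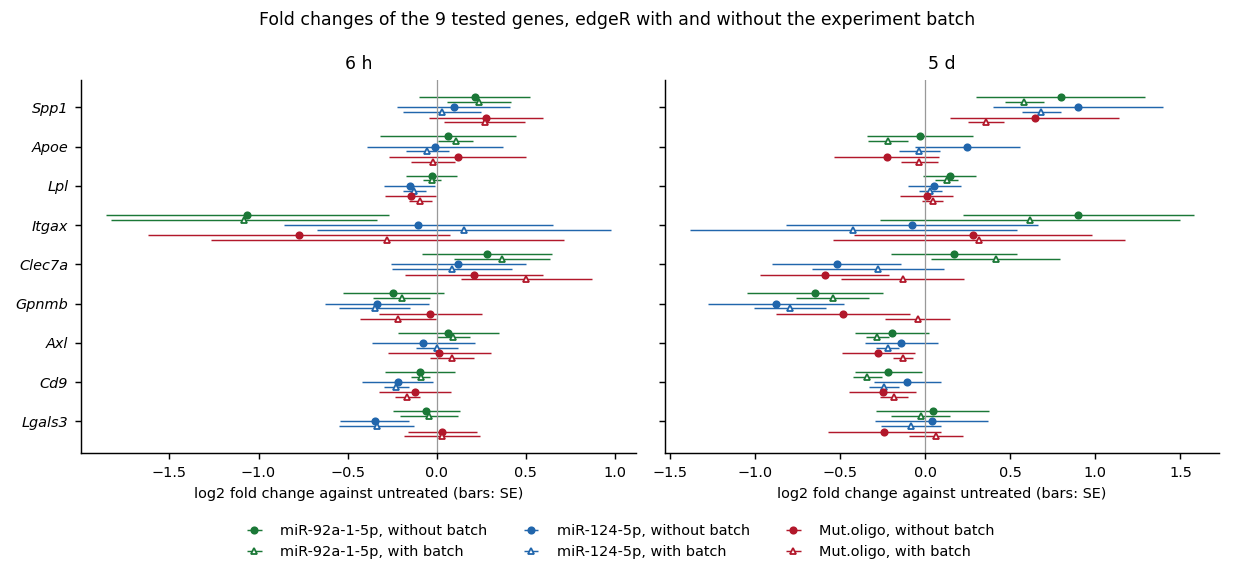
Log2 fold changes against untreated at 6 h (left) and 5 d (right) of the 9 tested genes, with bars for SE, filled circles without and open triangles with the experiment batch in the edgeR fit. At 5 d Spp1 lies above 0 for all 3 oligoribonucleotides and Gpnmb, Axl, and Cd9 lie below 0, and the bars of these 4 genes shorten with the batch, while those of Itgax do not. Spp1 at 5 d was selected for its rise and carries no test.

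Some markers of other cell types fell at 5 d in the fit with the batch, and none passed without it. With the batch as a covariate, 4 of 8 tested oligodendrocyte lineage markers fell after miR-92a-1-5p, 1 after Mut.oligo, and 2 after miR-124-5p. Pdgfra, a receptor of oligodendrocyte precursors, was among them in all 3, with log2 fold changes of -1.58, -1.47, and -1.53 in this order. Kdr, an endothelial growth factor receptor, fell by 1.46, 1.37, and 1.01 on the log2 scale. It was the only one of the 8 listed endothelial markers that passed in this fit. The summed oligodendrocyte lineage level was 190 to 234 CPM in untreated and 104 to 191 CPM after miR-92a-1-5p. Tagln, a smooth muscle gene, fell by 1.89, 2.17, and 1.66. Of the 9 listed mural cell and fibroblast markers, only Acta2 passed besides Tagln, and only after miR-92a-1-5p, with -2.08. The study itself names Pdgfra, Kdr, and Tagln as lowered at 5 d by all 3 oligoribonucleotides in these same libraries. No homeostatic microglial, general microglial, border macrophage, or astrocyte marker passed at 5 d in either edgeR fit. Lgals1, the galectin-1 gene and a relative of Lgals3, fell by 0.63 after miR-92a-1-5p (SE 0.0892, adjusted p = 0.00912, edgeR with the batch). The part of these cell types in the levels of Cd9, Axl, or Gpnmb was not tested.

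The difference between the 5 d and the 6 h response was tested for the 8 genes other than Spp1. None passed for any oligoribonucleotide, and 0% of 20425 genes passed in each case. For Spp1, the 5 d fold change exceeded that at 6 h by 0.60 (SE 0.661) for miR-92a-1-5p, 0.39 (SE 0.674) for Mut.oligo, and 0.81 (SE 0.673) for miR-124-5p on the log2 scale.

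Untreated cultures differed far more between the 2 times than exposed from untreated ones at either time. Of the 8 genes other than Spp1, 3 rose from 6 h to 5 d and 0 fell. This share was near the 33.5% of 20425 genes that passed in either direction. Apoe rose by a log2 fold change of 2.43 (SE 0.386, adjusted p = 4.19e-06, edgeR), from 158 ± 64.6 to 848 ± 270 CPM (SD, n = 4). Axl rose by 1.35 (SE 0.269, adjusted p = 9.3e-05) and Gpnmb by 0.93 (SE 0.369, adjusted p = 0.0335). For Spp1, the log2 fold change was 1.93 (SE 0.480), from 1.53 ± 0.571 to 5.85 ± 3.29 CPM, with no test, since the untreated libraries at 5 d enter the comparison on which it was chosen. All untreated libraries of Apoe, Spp1, and Axl were higher at 5 d than any at 6 h. For Gpnmb they overlapped, and its adjusted p was 0.123 in a fit of the untreated libraries alone. Its call was also lost without untreated 1, 2, or 4 at 6 h (adjusted p = 0.0679, 0.0948, and 0.0725) and without untreated 1 or 3 at 5 d (0.0896 and 0.255). Lpl had a log2 fold change of 0.43 with an adjusted p of 0.0250, under the minimum fold change. It passed without untreated 4 at 6 h, or without untreated 2 or 4 at 5 d, with 0.55, 0.53, and 0.56. Cd9 had 0.41 and passed without untreated 4 at 6 h or untreated 2 at 5 d, with 0.575 and 0.568. Clec7a and Lgals3 had 0.33 each. The adjusted p of Cd9, Clec7a, and Lgals3 ranged from 0.0973 to 0.489. Batches were not shared between the times, so culture age and batch cannot be told apart.

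**Figure D4:**
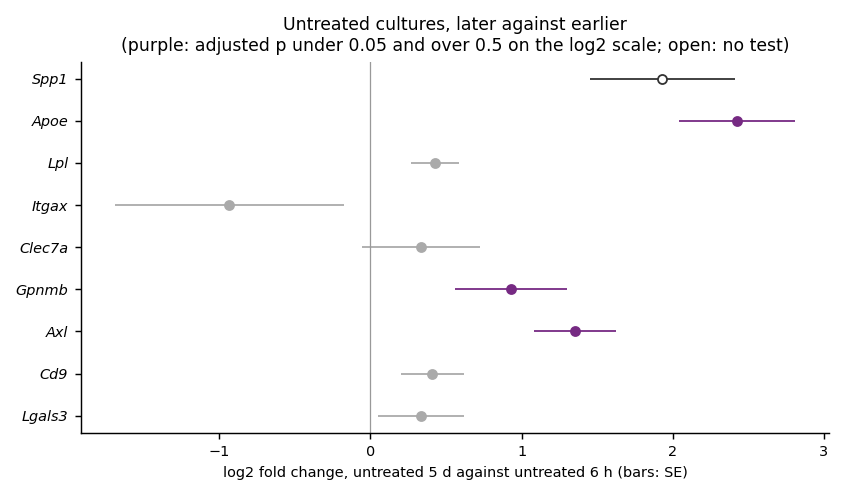
Log2 fold change of untreated libraries at 5 d against 6 h for 9 genes, with bars for SE (n = 4 each). Apoe at 2.43, Axl at 1.35, and Gpnmb at 0.93 passed the threshold and are drawn in purple, Spp1 at 1.93 is drawn open because it was not tested, and the other 5 are grey.

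The partners of these genes were higher at 5 d in part, and their counts stand beside the 33.5% of all genes that passed between the times in either direction. Of 8 osteopontin receptors, 5 rose and 0 fell, with a median log2 fold change of 0.63, against 0.04 over all tested genes. Itgav, Itga4, and Cd44 had 1.01, 1.02, and 0.89. Among the 9 lipoprotein receptors and exporters around Apoe, 3 rose, the cholesterol exporter Abca1 by 2.02, Apoc1 by 1.93, and clusterin, Clu, by 1.23. Of 4 Axl partners, the ligands Gas6 and Pros1 and the sister receptor Mertk rose by 0.57, 1.17, and 2.00. Of 8 cathepsins and cystatins related to Cst7, 6 rose, and those with the smallest p were Ctsl with 0.82, Ctsf with 0.98, and Ctsb with 0.80. Angptl4, an inhibitor of lipoprotein lipase, rose by 4.23 and was the only one of 3 tested Lpl partners that passed. Among MiT transcription factors, which drive lysosomal genes such as Gpnmb, Mitf and Tfeb rose by 0.93 and 1.23 and the other 2 of 4 did not pass. Of the 4 tetraspanins related to Cd9, Cd63 and Cd81 rose by 1.04 and 0.89. Of the galectin partners, Lgals8 rose by 0.78 and Lgals9 fell by 1.07. None of the 5 genes around Clec7a and Itgax passed.

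Of the 23 other disease-associated genes, 9 rose and 3 fell from 6 h to 5 d in untreated cultures, with a median of 0.44. Cadm1 rose by 1.19, Ctsl by 0.82, and Serpine2 by 1.45, and Cd52, Fabp5, and Capg fell. All 10 astrocyte markers rose, with a median of 2.06. Of the homeostatic microglial markers, 3 of 10 tested rose, among them Selplg by 1.077 and Cx3cr1 by 0.93. Of the border macrophage markers, Mrc1 rose by 2.14, as 1 of 6. Of the 11 general microglial markers, 3 rose, Ly86 by 1.16, Laptm5 by 0.70, and Csf1r by 0.63, and Fcer1g fell by 0.83. For the homeostatic and the general microglial markers, these counts are near the 33.5% of all genes that passed. The part of astrocytes in the rise of Apoe, Axl, or Spp1 was not tested.

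The levels of the 9 tested genes were then related to summed marker levels across the 16 libraries of each time. Each was taken as a deviation from its condition mean, and p-values came from 100000 permutations within conditions, adjusted over 36 relations. With 2 microglial lists, 19 of 36 relations had an adjusted p under 0.05, all positive. Apoe followed the 11 general microglial markers with r = 0.63 and rho = 0.47 at 6 h (adjusted permutation p = 0.0395 and 0.148) and with r = 0.89 and rho = 0.84 at 5 d (adjusted permutation p = 0.000874 and 0.000585). Without the 2 libraries farthest from the median, r was 0.67 and 0.83, and the adjusted permutation p at 6 h was 0.069. Within batches, r was 0.85 and 0.76, with adjusted permutation p of 0.350 and 0.422. Gpnmb had r = 0.08 and rho = 0.17 at 6 h and r = 0.85 and rho = 0.87 at 5 d, with adjusted permutation p of 0.817, 0.601, 0.00492, and 0.00811. Its r within batches was 0.65 and 0.12. Without the 2 farthest libraries, it was 0.05 and 0.88. Spp1 had r = 0.59 and rho = 0.53 with the general markers at 6 h (adjusted permutation p = 0.0874 and 0.147), and r = 0.25 within batches and 0.29 without the 2 farthest libraries. With the homeostatic markers at 6 h, it had r = 0.09 and rho = 0.19 (adjusted permutation p = 0.768 and 0.549). Neither list passed for Spp1 at 5 d, with r = -0.11 and rho = 0.12 for the general markers (adjusted permutation p = 0.768 and 0.745) and r = -0.39 and rho = -0.19 for the homeostatic markers (0.280 and 0.601). Its r within batches at 5 d was 0.13 and -0.79, and without the 2 farthest libraries 0.11 and 0.02. Taken as deviations from batch means, 0 of 36 relations passed and 7 had an unadjusted permutation p under 0.05.

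Astrocyte markers were added as a comparison after values were seen. At 6 h, Axl followed them with r = 0.97 and rho = 0.98, Apoe with r = 0.96 and rho = 0.96, and Cd9 with r = 0.93 and rho = 0.98, with adjusted permutation p of 0.000135 to 0.000675 over 18 relations. Within batches, r was 0.63, 0.89, and 0.81 over 14 libraries, with adjusted permutation p of 0.181 to 0.524. Without the 2 farthest libraries, r was 0.96, 0.93, and 0.89. The 5 libraries of batches D and F had the lowest astrocyte levels at 6 h, apart from the other 11. The gap was 0.27 on the log2 scale, beside a next largest gap of 0.21, against 0.30 and 0.11 at 5 d. The pooled r at 6 h therefore also reflects which batches were low. Spp1 had r = 0.09 and rho = 0.12 (adjusted permutation p = 0.826 and 0.744). At 5 d, the libraries fell into 2 sets by astrocyte level, 9 libraries at 1791 to 2153 CPM from batches J, K, and M, and 7 at 2644 to 3184 CPM from batches H, I, and L, so no pooled correlation is given. On the scale with the prior count, Axl was 22.2 to 30.9 CPM in the lower and 35.5 to 40.0 CPM in the higher set, and Apoe 570 to 765 and 884 to 1796 CPM. Spp1 overlapped, at 3.45 to 13.1 and 2.86 to 16.7 CPM. Within the lower set, Axl had r = 0.90 and rho = 0.90 (n = 9, exact permutation test, adjusted p = 0.0128 and 0.0365 over 18 relations), and Lpl had r = -0.87 and rho = -0.87 (exact, 0.0218 and 0.0406). Without the 2 farthest libraries, r was 0.91 and -0.80. These 9 libraries come from 3 batches, and the permutations did not keep libraries within their batch. As deviations from batch means over 15 libraries at 5 d, r was 0.79 for Axl and -0.62 for Lpl, with adjusted permutation p of 0.102 and 0.181. In the higher set, 0 of 9 relations passed, and the largest r was 0.78 for Gpnmb.

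**Figure D5:**
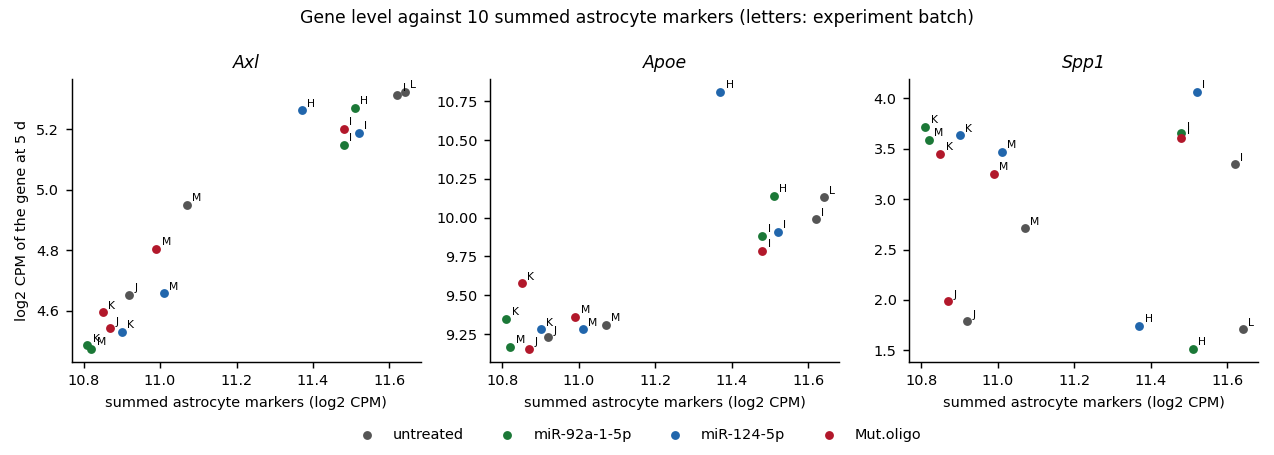
Log2 CPM of Axl, Apoe, and Spp1 at 5 d against the log2 of the summed CPM of 10 astrocyte markers, 1 point per library, coloured by condition and lettered by batch. Axl and Apoe are higher in the 7 libraries of batches H, I, and L than in the 9 of J, K, and M, while Spp1 overlaps between these sets. Letters of neighbouring points may overlie each other.

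Over both times together, the 10 ranked genes whose levels were most like those of Spp1 were not members of the list. Clec7a, Itgax, and Cst7 were too low to be ranked. Likeness was Pearson's r of deviations from condition means over all 32 libraries among 13652 tested genes with a mean of at least 1 CPM, and is a description without a test. The first 10 were Itgbl1 (r = 0.76), Cacna2d3 (0.72), Serinc3 (0.71), Ak5 (0.68), Slc25a51 (0.67), Trhr (0.67), Xist (0.66), Rnf182 (0.65), Prkacb (0.64), and Nrip3 (0.63). Cacna2d3 encodes an auxiliary subunit of neuronal calcium channels, Trhr the receptor of thyrotropin-releasing hormone, and Prkacb a catalytic subunit of protein kinase A. For 9 of these 10, r was positive at both times, whereas Xist, the transcript that silences an X chromosome, had r = -0.58 at 6 h and 0.79 at 5 d. The r of these 9 ranged from 0.11 for Nrip3 to 0.63 for Cacna2d3 at 6 h. At 5 d, it ranged from 0.65 for Prkacb to 0.91 for Trhr. The r of Lpl, Gpnmb, Apoe, and Lgals3 at 6 h, given below, lay within the 6 h range of these 9. Libraries of a batch share their deviations, so these values also reflect which batches were high. Of the list, Lpl came first at rank 1560 with r = 0.30, then Gpnmb at 4513 with 0.14 and Cd9 at 6104 with 0.06. Axl, Apoe, and Lgals3 had r of -0.08, -0.13, and -0.14 and ranks of 8909, 9883, and 10051. Within 6 h and 5 d, in this order, r was 0.33 and 0.30 for Lpl, 0.43 and 0.04 for Gpnmb, and -0.13 and 0.17 for Cd9. It was 0.02 and -0.17 for Axl, 0.20 and -0.37 for Apoe, and 0.54 and -0.32 for Lgals3, so that Cd9, Axl, Apoe, and Lgals3 differed in sign between the times.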

How the data were processed

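The authors mapped reads of stranded libraries to GRCm38 with STAR and counted reads on exons with featureCounts, and the deposited counts of 49671 genes in 32 libraries are not normalized. The table's 32 columns were mapped to conditions by their labels. None of 48 replicate pairs was identical (chi-square per degree of freedom 7.10 to 110). The members, lists, and tests were chosen with earlier results of these data known. A gene entered a fit with a minimum of 5 counts in 3 or more libraries, and edgeR (4.0.16, R 4.3.3) was used (TMM, all 4 groups of a time point, quasi-likelihood test, no covariate), with Benjamini-Hochberg adjustment over all genes. One fit of all 32 libraries gave comparisons between times. Log2 CPM for within-batch differences and correlations used a prior count of 2. Named were all 10 members, up to 3 genes per list with the smallest p among those that passed, and the 10 genes most like Spp1. Further list genes that fell, and Csf1r, were named after their values were seen. Alternatives were the batch or replicate number as a covariate, DESeq2 1.42.0, RLE size factors, other filters, no minimum fold change, 2-group fits, and leaving out each library. The fits were tested on simulated data. Spp1 overlaps Gm42793 on the same strand, so reads shared by both may be missing from its counts. P-values measure the spread between libraries. Some results on list genes are not reported here.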

Additional observations from a re-analysis of the deposited data

Results flagged for a closer look

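In groups of 4, a library was taken as standing apart when its gap to the nearest other library exceeded Dixon's 95% critical share of the group's range, which chance gives in about 1 of 20 groups. Of 77 groups with any spread, 4 had such a library. Spp1 was 2.83 CPM in miR-92a-1-5p 1 at 5 d, against 12, 12.7, and 13.2 CPM in the other 3. The same library had the highest Lgals3 of its group, with 3.19 CPM against 1.86, 1.97, and 1.99 CPM. It shares batch H with miR-124-5p 1, which had 3.28 CPM of Spp1 and 3.70 CPM of Lgals3. Gpnmb was 3.32 CPM in untreated 3 at 6 h, against 1.49, 1.63, and 1.69 CPM. Cst7 had 1 count, or 0.0263 CPM, in untreated 4 at 6 h and 0 in the other 3, which is under the floor of 3 counts.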

How the results depend on the processing

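The count of 0 genes that passed in each of the 12 comparisons of conditions, and in the 3 differences between times, was the same under every alternative that was run. The minimum fold change was dropped only in the edgeR fit without a covariate, and not for the 3 differences between times. With DESeq2 and the batch, Axl and Cd9 after miR-92a-1-5p at 5 d missed the threshold by the minimum fold change alone. The count of 3 for untreated cultures at 5 d against 6 h ranged from 2 to 5 when single libraries were left out, with 5 without untreated 2 at 5 d. With the replicate number as a paired factor (replicate block), it was 3 and the adjusted p of Gpnmb was 0.0471. The labels do not say that a number marks a shared culture, and the pairs did not all deviate together: same-numbered libraries correlated by -0.26 to 0.31 at 6 h and by -0.22 to 0.42 at 5 d, and libraries of the same batch by 0.06 to 0.39 and by 0.07 to 0.42. The count of 19 of 36 relations to microglial markers moved to 0 with deviations from the batch mean.

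When single libraries were left out, the log2 fold change changed sign in 5 of the values given. Spp1 at 6 h ranged from -0.092 to 0.44 for miR-92a-1-5p and from -0.091 to 0.32 for miR-124-5p. Clec7a at 5 d ranged from -0.055 to 0.63 for miR-92a-1-5p, Cd9 at 5 d from -0.23 to 0.016 for miR-124-5p, and Clec7a in untreated cultures over time from -0.13 to 0.84. Over all 59 tested fold changes of these genes against untreated or between times, 30 had another sign under at least 1 alternative, the largest of them 0.34. None of these results passed the threshold. The cause was not tested. At 0 to 9 counts, Cst7 and Itgax allow no statement on smaller differences.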
